A study of Saccharomyces cerevisiae with 2 samples.

Results

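Budding yeast decides to enter meiosis, and later commits to the meiotic divisions, through a small set of regulators. Of 6592 named genes in the ribosome profiling table, 10 such regulators were taken by name, and all 10 were found: IME1, IME2, RIM11, RIM15, UME6 and RME1 of the entry circuit, and NDT80, SUM1, RFM1 and HST1 of the switch to the middle programme. They were chosen by name and role, with earlier results of these data known. Ribosome footprints, the stretches of mRNA that ribosomes protect, came from 2 libraries of the SK1 background, a strain that sporulates efficiently. One culture was labelled WT and the other gim3 deletion, which lacks a subunit of prefoldin, a complex that helps actin and tubulin fold by delivering them to the chaperonin CCT. Both cultures had passed 24 hours in YEPD at 22 degrees C and 16 hours in BYTA before their 4 hours in sporulation medium. No other allele or treatment is named in the labels, which also do not say how many strain isolates were used.

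Entry works as a relay. Ime1 is a transcriptional activator made in starved diploid cells. It has no DNA-binding domain of its own and is brought to early promoters by Ume6, which binds the URS1 element and in growing cells represses the same genes through the Sin3-Rpd3 histone deacetylase. The kinases Rim11 and Rim15 promote the joining of Ime1 to Ume6, and Rme1, which diploid cells repress, holds IME1 off. Ime1 switches on early genes, among them IME2, a kinase that speeds the programme and acts on the factors of the next step. That step is the contest at the middle sporulation element, a promoter site bound both by the repressor Sum1 and by the activator Ndt80. Sum1 works with Rfm1, a linker protein, and Hst1, an NAD-dependent histone deacetylase of the sirtuin family. Ndt80 activates the genes of the divisions and of spore formation, including its own gene.

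The 2 libraries held 40433177 (WT) and 27864644 (gim3 deletion) counted footprints. Values are in RPM (reads per 1000000 counted reads of the library). GIM3 stood at 34.9 RPM in WT and 0.108 RPM in gim3 deletion. There was 1 library per genotype, so no test between genotypes was possible. Every interval below is a 95% interval that covers counting error only. It is exact for levels and folds and approximate for ratios of ratios. Since the libraries are of whole cultures, more cells at a stage and more footprints per cell cannot be told apart, and with no mRNA libraries used here neither can mRNA level and translation. All 10 regulators passed the minimum of a mean of 10 RPM, and the least covered value rested on 358 reads. None of the 10 overlaps another annotated gene in the R64 annotation.

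Of the 10 regulators, 2 were higher in gim3 deletion by 2-fold or more, 0 were lower by as much, and 8 lay within 2-fold. The rule was applied to the log2 ratio after adding 1 RPM. The 2 were NDT80 and HST1. By the same rule 6.35% of all 4916 compared genes were higher and 8.50% were lower. The log2 ratio of the median gene was -0.20, and centring on it left the 10 regulators at 2 higher and 0 lower, against 8.30% and 5.21% of all genes. With a 1.5-fold rule IME2 joined the higher genes and UME6 was lower, giving 3 and 1 of 10, against 12.0% and 22.6% of all genes. IME2 passed that rule narrowly, since the counting interval of its fold (1.494 to 1.514) spans 1.5. The median log2 ratio of the 10 was 0.02, or 0.22 relative to the median gene.

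**Figure D1:**
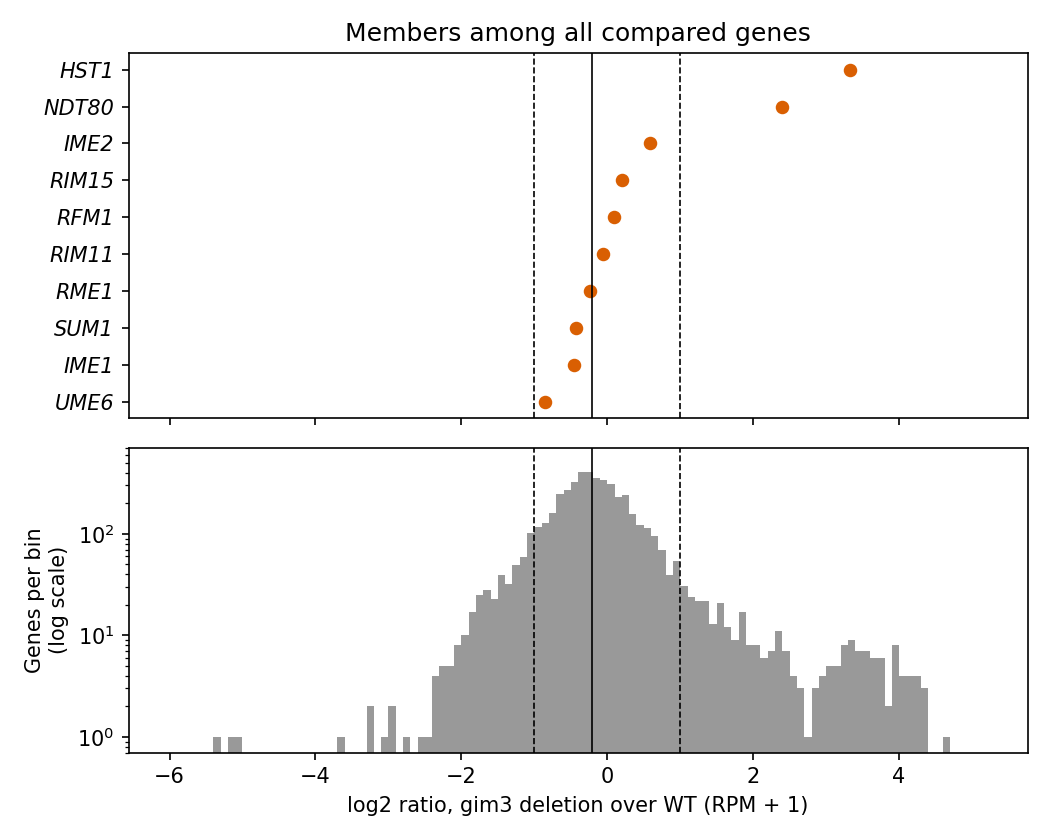
Upper panel, the log2 ratio of gim3 deletion over WT (RPM + 1) for each of the 10 regulators. Lower panel, the number of compared genes per bin of the same ratio on a log scale; dashed lines mark 2-fold and the solid line the median gene at -0.20. HST1 at 3.32 and NDT80 at 2.39 lie to the right of the 2-fold line and the other 8 between the dashed lines.

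IME1, the activator at the head of the relay, was abundant in both libraries. It stood at 3290 RPM in WT (3272 to 3308) and at 2395 RPM in gim3 deletion (2377 to 2413), 1.37-fold lower (1.36 to 1.39), with a log2 ratio of -0.46, or -0.25 when centred. Per kilobase of gene, IME1 was at 3038 RPM in WT and 2212 in gim3 deletion, above 99.3% and 98.8% of compared genes. Few genes had a denser cover of footprints in either culture. Over the 2 libraries, the genes nearest to IME1 in log2 level were IDH2, a mitochondrial isocitrate dehydrogenase subunit, BMH2, a 14-3-3 protein, and HOP1, a protein of the meiotic chromosome axis. Their distances were 0.07, 0.18 and 0.19 log2 units.

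IME2, the kinase that Ime1 switches on, differed the other way. It stood at 4120 RPM in WT (4100 to 4140) and 6196 RPM in gim3 deletion (6167 to 6225), 1.504-fold higher (1.494 to 1.514). The order of the pair per kilobase therefore turned around. In WT, IME1 lay 1.43-fold above IME2, and in gim3 deletion IME2 lay 1.45-fold above IME1. The ratio of IME2 to IME1 within a library, which does not depend on how the libraries are scaled to each other, was 2.07 times as high in gim3 deletion (2.04 to 2.09). IME2 is itself under Ume6, yet its log2 ratio of 0.59 was above those of all 30 listed early meiotic genes. When centred, the log2 ratio of IME2 was 0.79. Together IME1 and IME2 took 0.741% of the footprints in WT and 0.859% in gim3 deletion.

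**Figure D2:**
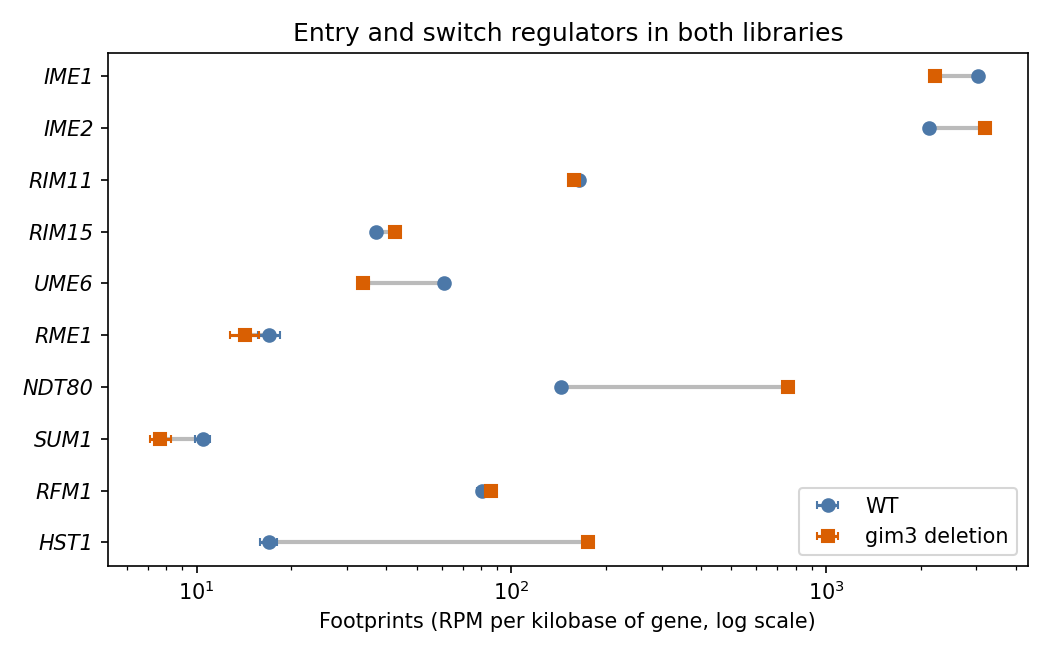
Footprints of the 10 regulators in RPM per kilobase of gene on a log axis, with circles for WT, squares for gim3 deletion and bars for the exact 95% counting interval, which is often narrower than the symbol. IME1 and IME2 change places at the top, while NDT80 and HST1 show the longest lines between the libraries.

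The kinases that act on the Ime1-Ume6 pair differed little. RIM11, a kinase of the GSK3 family, stood at 183 RPM in WT and 176 RPM in gim3 deletion, a ratio of 0.963 (0.929 to 0.999). Its log2 ratio of -0.05 turned to 0.15 when centred and was also positive under the other 2 scalings tried. RIM15, a kinase of nutrient signalling, stood at 198 RPM in WT and 227 RPM in gim3 deletion, 1.15-fold higher (1.11 to 1.19). Its log2 ratio was 0.20, or 0.40 when centred.

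UME6 had the lowest ratio of the 10. It stood at 154 RPM in WT (150 to 158) and at 85.0 RPM in gim3 deletion (81.6 to 88.5), 1.81-fold lower (1.73 to 1.90). The log2 ratio was -0.85, or -0.64 when centred, and 12.0% of compared genes had a lower one. Per kilobase, IME1 exceeded UME6 49.6-fold in WT and 65.3-fold in gim3 deletion. The ratio of IME1 to UME6 was thus 1.32 times as high in gim3 deletion (1.26 to 1.38).

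RME1, the repressor of entry, was scarce in both cultures. It stood at 15.3 RPM in WT (14.1 to 16.6) and 12.8 RPM in gim3 deletion (11.6 to 14.3), and per kilobase only 15.2% and 15.4% of compared genes lay below it. Its log2 ratio was -0.24, and -0.03 when centred. Per kilobase IME1 exceeded RME1 179-fold in WT and 155-fold in gim3 deletion, and the ratio of these ratios was 0.868 (0.761 to 0.988). Because Rme1 is repressed in diploids, genes specific to haploid cells and mating were read beside it. Of 20 such genes 13 had a mean under 10 RPM, and the list summed to 116 RPM in WT and 305 RPM in gim3 deletion. No gene of the list was at 0, but the alpha-factor genes MF(ALPHA)1 and MF(ALPHA)2 had 9 and 2 reads in WT and 5 and 3 in gim3 deletion. The median log2 ratio was 0.40 over all 20 and 0.72 over the 7 that passed the minimum. STE18 and STE4, the gamma and beta subunits of the mating G protein, had the highest ratios of the 7. STE18 stood at 9.77 RPM in WT and 123.7 in gim3 deletion, so that it passed the minimum only through the library where it is high, as did STE5. STE4 stood at 21.4 RPM in WT and 62.9 in gim3 deletion. GPA1, the alpha subunit, was lowest of the 7 with a log2 ratio of -0.10, which is positive when centred. The part of this list in the RME1 value was not tested.

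NDT80, the activator of the middle programme, was far higher in gim3 deletion. It stood at 271.5 RPM in WT (266 to 277) and 1429 RPM in gim3 deletion (1415 to 1443), a 5.26-fold difference (5.15 to 5.38). The log2 ratio was 2.39, or 2.60 when centred. Per kilobase NDT80 lay above 77.8% of compared genes in WT and above 94.98% in gim3 deletion. EPT1, its coding neighbour on the upstream side, differed the other way, with 59.5 RPM in WT and 27.6 in gim3 deletion. The genes nearest to NDT80 in log2 level over the 2 libraries were RGI2, which acts in respiratory energy metabolism, PHO84, a phosphate transporter, and DON1, a prospore membrane protein. Their distances were 0.16, 0.23 and 0.44 log2 units.

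NDT80 was also set against IME2, whose kinase acts on Ndt80. Per kilobase, IME2 exceeded NDT80 14.7-fold in WT and 4.21-fold in gim3 deletion. The ratio of NDT80 to IME2 within a library was thus 3.50 times as high in gim3 deletion (3.42 to 3.58).

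SUM1, the DNA-binding subunit of the repressor, was the scarcest of the 10 per kilobase in both libraries. It stood at 33.4 RPM in WT (31.6 to 35.2) and 24.5 RPM in gim3 deletion (22.7 to 26.4), a ratio of 0.733 (0.668 to 0.804), with a log2 ratio of -0.43, or -0.23 when centred. Per kilobase, NDT80 exceeded SUM1 13.8-fold in WT and 98.8-fold in gim3 deletion. The ratio of NDT80 to SUM1 was therefore 7.18 times as high in gim3 deletion (6.53 to 7.89). RFM1, the linker, stood at 75.3 RPM in WT (72.7 to 78.03) and 80.2 RPM in gim3 deletion (76.9 to 83.6). This is a ratio of 1.06 (1.01 to 1.12), with a log2 ratio of 0.09, or 0.29 when centred.

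HST1, the deacetylase of the same repressor, had the largest difference of the 10. It stood at 25.7 RPM in WT (24.1 to 27.3) and 266 RPM in gim3 deletion (260 to 272), 10.4-fold higher (9.70 to 11.1). Only 59 of the 4916 compared genes had a higher log2 ratio than its 3.32. When centred, the log2 ratio of HST1 was 3.53. In WT, HST1 and RME1 could not be ordered per kilobase, since their counting intervals overlapped, whereas in gim3 deletion HST1 was the fourth of the 10 and lay above RIM11. The neighbours of HST1 on the chromosome, which were looked at after its value was seen, lie 70 and 105 bases away. NUF2, a kinetochore subunit, stood at 45.5 RPM in WT and 41.4 in gim3 deletion, and RTG1, a transcription factor of retrograde signalling, was 1.53-fold higher.

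The 3 subunits of the repressor thus stood in another order in each library. Per kilobase in WT, RFM1 was 4.75-fold above HST1 and 7.71-fold above SUM1. In gim3 deletion HST1 was 2.05-fold above RFM1 and 22.9-fold above SUM1. The ratio of HST1 to SUM1 was 14.1 times as high in gim3 deletion (12.6 to 15.8), and that of HST1 to RFM1 9.73 times (8.93 to 10.6). HST1 also differed more than NDT80 did, so that the ratio of NDT80 to HST1 was 1.97 times as high in WT (1.84 to 2.11).

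The 4 sirtuin relatives of Hst1 were divided, with a median log2 ratio of 0.85. SIR2, the closest paralog and the deacetylase of silent chromatin, stood at 12.9 RPM in WT and 12.7 in gim3 deletion, and HST2, a mainly cytoplasmic sirtuin, was 1.45-fold lower (1.39 to 1.52). HST3 and HST4, which deacetylate histone H3 after DNA replication, were both at least 2-fold higher, as were 6.35% of all compared genes. HST3 went from 56.1 to 186 RPM, a 3.32-fold difference (3.16 to 3.49), and HST4 from 27.4 to 116 RPM, a 4.23-fold difference (3.95 to 4.54). How reads that fit both HST1 and SIR2 were counted is not given in the sources used here.

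**Figure D3:**
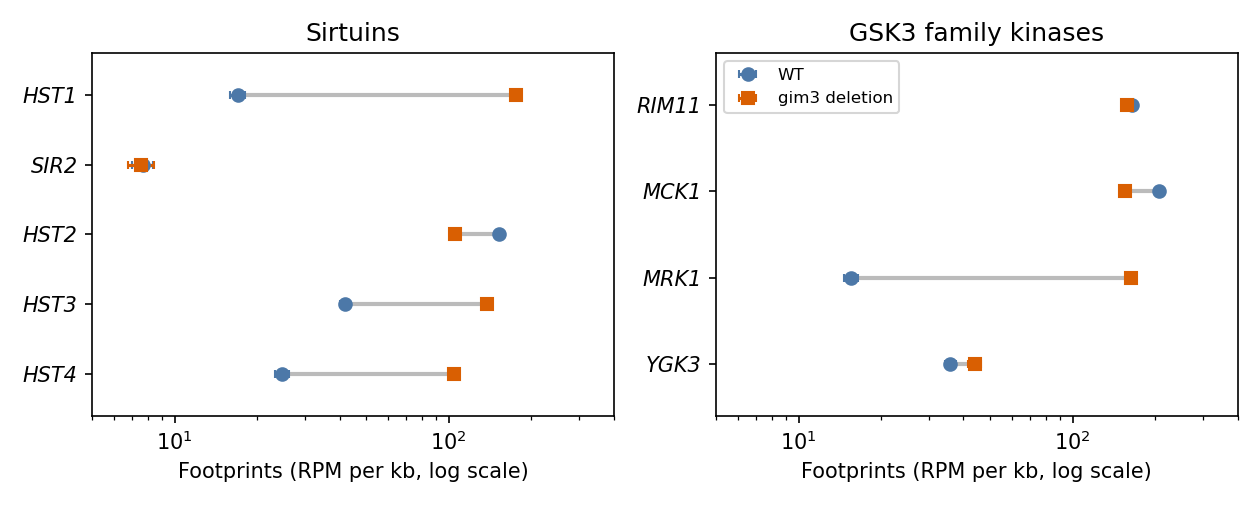
Footprints in RPM per kilobase of gene on a log axis for HST1 and the other sirtuins (left) and for RIM11 and the other kinases of the GSK3 family (right), with circles for WT, squares for gim3 deletion and bars for the exact 95% counting interval. HST1, HST3, HST4 and MRK1 show long lines, whereas SIR2 and RIM11 nearly coincide.

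The GSK3 relatives of Rim11 were divided in the same manner. MRK1 was 10.5-fold higher in gim3 deletion (9.87 to 11.2), with 28.0 RPM in WT and 294 RPM in gim3 deletion. MCK1, which also promotes meiotic entry, was 1.33-fold lower (1.29 to 1.38), from 233 to 175 RPM, and YGK3 was 1.23-fold higher (1.14 to 1.32), from 40.4 to 49.6 RPM. Of the 3 paralogs 1 was therefore at least 2-fold higher, against 6.35% of all compared genes. The median log2 ratio of the 3 was 0.29.

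The targets of both arms of the circuit were counted next. Of 30 early meiotic genes under Ume6, 0 were beyond 2-fold in either direction, against 6.35% of all compared genes higher and 8.50% lower. The median log2 ratio of the 30 was -0.10, which turned to 0.11 when centred. ECM11, of the synaptonemal complex, was highest at 0.40, and RIM4, a translational repressor, was lowest at -0.94, with 10429 RPM in WT and 5442 RPM in gim3 deletion. UME6 at -0.85 lay below 28 of the 30, and IME1 and SUM1 each below 25. Of 40 compared middle genes under Ndt80, 36 passed 2-fold upward and 0 downward, against the same 6.35% and 8.50% of all genes. The median log2 ratio of the 40 was 3.37. Of the 40, 5 passed the minimum only through gim3 deletion, and over all 42 listed genes 37 passed 2-fold upward and the median was 3.35. GAS2, a spore wall enzyme, was highest at 4.68 and AMA1, which directs the anaphase-promoting complex in meiosis, lowest at -0.997. As a plain ratio AMA1 was 2.001-fold lower (1.94 to 2.06), from 389 to 194 RPM. At the deposited scaling, its place within 2-fold thus rests on the added 1 RPM. The log2 ratio of NDT80 itself, 2.39, was below that of 31 of the 40. HST1 at 3.32 lay near the middle of the list, above 17 and below 23, and MRK1 at 3.35 above 19 and below 21. Whether HST1 or MRK1 is a target of Ndt80 was not tested.

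**Figure D4:**
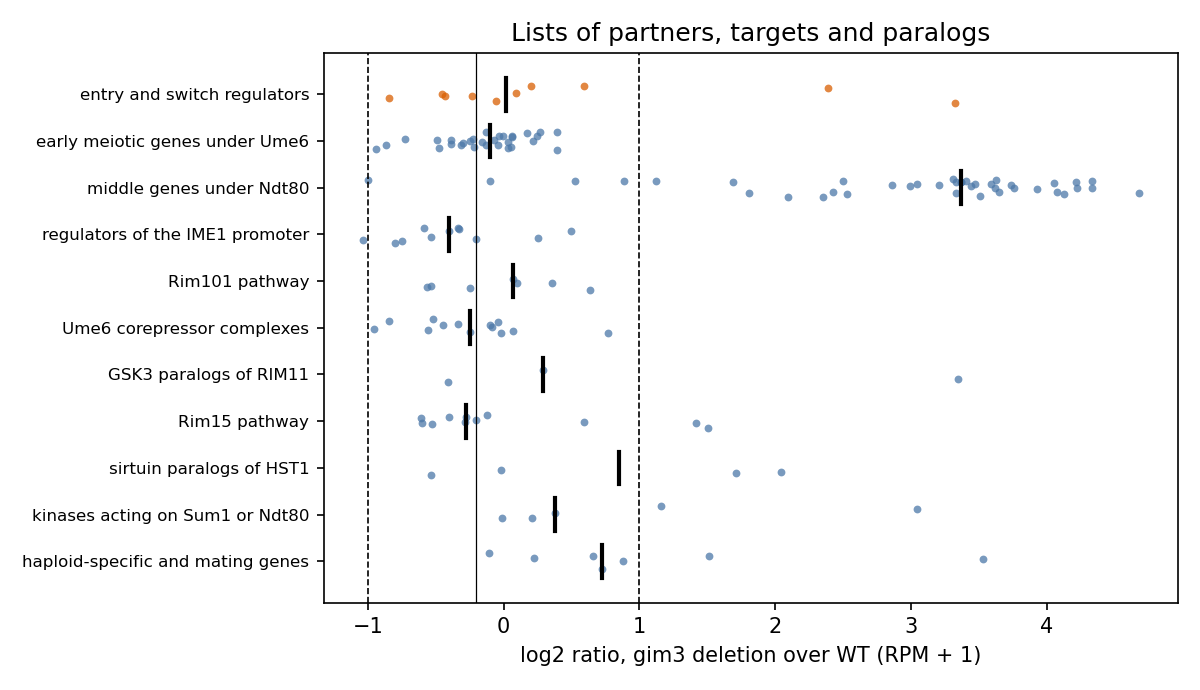
Log2 ratio of gim3 deletion over WT (RPM + 1) for each compared gene of the 10 regulators (top row) and of each list of targets, partners and paralogs; short bars are medians, dashed lines 2-fold and the thin line the median gene. The middle genes lie mostly beyond 2-fold around a median of 3.37, and the early genes all lie within 2-fold.

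The kinases listed for Sum1 or Ndt80, taken with the Cdc7 partner Dbf4 and the activating kinase Cak1, were unevenly placed. CDC5, the polo kinase and a middle gene itself, went from 205 RPM in WT to 1704 in gim3 deletion. CAK1, which activates cyclin-dependent kinase and the sporulation kinase Smk1, was 2.26-fold higher (2.12 to 2.41), from 37.0 to 83.8 RPM. CDC28, the cyclin-dependent kinase, was 1.30-fold higher, CDC7 1.16-fold higher, and DBF4, the regulatory subunit of Cdc7, had a ratio of 0.990 (0.962 to 1.02). Thus 2 of the 5 passed 2-fold upward and 0 downward, against 6.35% and 8.50% of all compared genes. The median log2 ratio of the 5 was 0.38.

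Upstream of IME1 stand the transcription factors that bind or act at its promoter. Of 11 compared factors 1 passed 2-fold downward and 0 upward, a count near the 8.50% of all genes that did, and none did when centred. Their median log2 ratio was -0.40, or -0.20 relative to the median gene. PHD1, a factor of filamentous growth, was lowest, at 17.0 RPM in WT and 7.75 in gim3 deletion, a log2 ratio of -1.04 that is within 2-fold once centred, and it passed the minimum only through WT. NRG2, which fell below the minimum, stood at 11.6 RPM in WT and 5.24 in gim3 deletion. Its log2 ratio was -1.01, also within 2-fold once centred. With no filter, 2 of the 13 listed factors thus passed 2-fold downward. CYC8, a corepressor that works with Tup1, was highest at 0.50, whereas TUP1 had a log2 ratio of -0.21. The activators MSN2 and MSN4 had log2 ratios of -0.75 and -0.54. The Rim101 pathway relays external pH and favours IME1. In it 0 of 7 compared genes were beyond 2-fold, against 6.35% of all genes higher and 8.50% lower. The median log2 ratio of the 7 was 0.07, which turned negative under other filters on low genes. RIM101, the transcription factor, was lowest at 669.5 RPM in WT and 451 in gim3 deletion, and RIM13, the protease that cleaves it, was highest with a log2 ratio of 0.63.

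Partners of Ume6 and of Rim15 completed the circuit. Of 13 genes of the corepressor complexes that work with Ume6, 0 were beyond 2-fold, against 6.35% of all genes higher and 8.50% lower. The median log2 ratio of the 13 was -0.25, or -0.05 when centred. SIN3, the scaffold, had a log2 ratio of -0.56 and RPD3, the deacetylase, -0.34. SDS3 was lowest at -0.96, and ISW2, a chromatin remodeller, was highest at 0.77, from 152 to 260 RPM. The median log2 ratio of the Rim15 pathway was -0.28, or -0.07 when centred. In this pathway 2 of 11 compared genes passed 2-fold upward and 0 downward, against the same 6.35% and 8.50% of all genes. The 2 were IGO2, at 2.86-fold (2.74 to 2.98), and GIS1, at 2.69-fold (2.61 to 2.77). IGO2 encodes a small protein that Rim15 phosphorylates and that then inhibits a phosphatase, and GIS1 a transcription factor downstream of Rim15. IGO1, the paralog of IGO2, was 1.22-fold lower (1.16 to 1.28). PHO85, a kinase that restrains Rim15, was lowest with a log2 ratio of -0.61, and SCH9, another such kinase, had -0.60.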

How the data were processed

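Both libraries are columns of 1 table of genes that the authors deposited. Its header names time and genotype but no unit. The deposited values are RPM, because each column adds up to 1000000. All values (100% in both, within 0.001 of a read) were whole multiples of the smallest, 0.0247 RPM in WT and 0.0359 RPM in gim3 deletion, so reads were recovered. Bowtie2, STAR and SAMtools were used, per the submitters' processing notes. The sources used here do not name the genome build, the annotation or the handling of reads with several matches. Of 6678 lines, 86 without a gene name were left out of comparisons.

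The log2 ratio was taken after adding 1 RPM, over the 4916 genes whose mean reached 10 RPM, which understates differences where levels are low. Folds are plain RPM ratios with Clopper-Pearson intervals from the division of reads, levels have exact Poisson intervals, and ratios of ratios have intervals from the log odds ratio. Amplified copies of a molecule cannot be recognised, so intervals cover counting error only. Lengths and systematic names come from the R64 RefSeq table (4876 of 4916 genes). Some lengths, such as the 1798 bases of MRK1, are not a whole number of codons. These may include an intron and so understate the level per kilobase. No count model was run, since it needs replicates. An exact two-sided binomial test on recovered reads, chosen after seeing the data, separated 4333 genes (Benjamini-Hochberg adjusted) and compares the libraries, not the genotypes. The members and lists were chosen with earlier results of these data known. The named genes were the members, the highest and lowest of each list, all sirtuin and GSK3 paralogs and kinases on Sum1 or Ndt80, and the 3 genes nearest to NDT80 and IME1 (Euclidean distance of log2(RPM + 1)). Other list members and neighbours were chosen after their values were seen. Promoter and protein sequences were not used here. Alternatives covered pseudocount, filter, scaling and threshold. The software was matplotlib 3.10.9, statsmodels 0.14.6, SciPy 1.17.1, pandas 2.3.3 and numpy 2.4.6 under Python 3.11.15.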

Additional observations from a re-analysis of the deposited data

Results flagged for a closer look

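Lines of the table with no gene name held 0.121% of the WT reads and 0.124% of the gim3 deletion reads, a signal in data that no comparison used. With 1 library per genotype, no sample could be set against others of its group.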

How the results depend on the processing

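The count of regulators at least 2-fold higher stayed at 2 under pseudocounts of 0.1 and 5 and all 3 other scalings. It also stayed at 2 with a 3-fold rule and both other filters (no filter, and a mean of at least 50 RPM). With a 1.5-fold rule it was 3, where IME2 passed only narrowly. The count at least 2-fold lower stayed at 0 in the same settings and was 1, UME6, with a 1.5-fold rule. Relative to the deposited scaling, centring on the median gene adds 0.20 to each log2 ratio, a trimmed mean of M values (30% of ratios and 5% of levels trimmed at each end) 0.17, and totals without the middle genes 0.07. Over all genes, centring turns 312 higher and 418 lower into 408 and 256. RIM11 changed sign under each of these 3 scalings, and no other regulator changed sign in any of the 50 values computed. Of the list medians, that of the early genes changed sign when centred (0.11) and with the trimmed mean (0.08), and that of the Rim101 pathway (0.07) with no filter (-0.09) and with a mean of at least 50 RPM (-0.25). A mean of at least 50 RPM leaves few genes in short lists. With it the median of the haploid and mating genes was 3.53 (STE18 alone). That of the sirtuin paralogs was 1.71 and that of the GSK3 paralogs 1.47. STE18, HST4 and MRK1 were below 50 RPM in WT and passed this filter only through gim3 deletion, where they are high. SIR2 and YGK3, which differed little, fell below it. The higher medians thus follow in part from the filter itself. When centred, 3 of the 7 haploid and mating genes (STE18, STE4 and STE5) were at least 2-fold higher, against 8.30% of all genes. Of these, STE18 and STE5 passed the minimum only through gim3 deletion, and 13 of the 20 listed genes were below it. With a pseudocount of 1, the ratio of NDT80 to SUM1 was 7.08 times as high in gim3 deletion and that of IME1 to RME1 0.858 times. No paired analysis was possible because there was 1 library per genotype. The intervals leave out variation between cultures, which this depth cannot show.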
